A study of Mus musculus with 6 samples.

Results

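A set of 10 mouse genes for receptors of extracellular nucleotides was described in the carotid body against the adrenal medulla. They were chosen by gene symbol from the 26728 entries of the deposited table, with no measured value in the rule, and they are 10 of 10 genes found, 4 for P2X channels and 6 for P2Y receptors. RNA was sequenced from 3 carotid body libraries and 3 adrenal medulla libraries, all from untreated adult mice of the C57/BL6 strain. Each library is a pool of tissue from 10 animals, made of 18 carotid bodies in one tissue and of 10 adrenal medullas in the other, and n therefore counts pools. The carotid body is the small organ at the carotid bifurcation that senses arterial oxygen. The adrenal medulla, the inner, catecholamine-releasing part of the adrenal, has cells of the same neural crest origin. The animals' sex and exact age are not given in the sources used here.

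P2X receptors are cation channels of 3 subunits that ATP opens directly. P2Y receptors are coupled to G proteins and respond to ATP, ADP, UTP, UDP or UDP-glucose, depending on the member. In the carotid body, ATP is a transmitter from the oxygen-sensing glomus cells to the afferent nerve endings, where receptors of P2X2 and P2X3 subunits receive it. ATP also acts on the glia-like type II cells, in the rat through P2Y2. The cell bodies of the afferent nerve lie in the petrosal ganglion, outside the dissected organ. Many P2 receptors are also found on macrophages, platelets, mast cells and vessel walls.

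The libraries held 13266225 to 16445925 reads. Cell type markers differed between the tissues beyond the receptors. For the steroid-making adrenal cortex, 9 of 9 tested genes were lower in the carotid body, and the list summed to 15.3 to 125 RPKM there against 11107 to 15784 RPKM in the adrenal medulla libraries. Markers of glia (11 of 11 tested), mast cells (7 of 7), fibroblasts (9 of 9), smooth muscle and pericytes (9 of 10) and endothelium (7 of 10) were higher in the carotid body libraries. Of 11 tested catecholamine cell markers, 6 were called lower in the carotid body, among them Th, the rate-limiting enzyme of catecholamine synthesis (434 to 646 RPKM against 887 to 2489 RPKM in the adrenal medulla), and Pnmt, which makes adrenaline (mean 6.84 against 4325 RPKM). The other 2 called markers, Ddc and Epas1, were higher in the carotid body. The values are RPKM, reads scaled to mRNA length and to library depth. The order of levels between genes below takes this scale as given, and uneven coverage along an mRNA after amplification was not tested. A higher value in one tissue can come from more cells of a type or from more RNA per cell, and these cannot be told apart in whole tissue.

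All 10 receptor genes had reads in all 6 libraries. Their summed level was 72.6, 154 and 121 RPKM in carotid body pools 1, 2 and 3, against 42.3, 45.5 and 42.0 RPKM in adrenal medulla pools 1, 2 and 3. P2ry12, an ADP receptor coupled to Gi and best known from platelets and microglia, made up 29.9%, 65.7% and 56.5% of the sum in the carotid body pools and 10.8%, 14.3% and 4.15% in the adrenal medulla pools. Most of the spread between carotid body pools in the sum was P2ry12. Together P2ry12, P2rx4 and P2ry14 held 73.0% to 86.3% of the sum in the carotid body and 83.9% to 89.6% in the adrenal medulla.

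**Figure D1:**
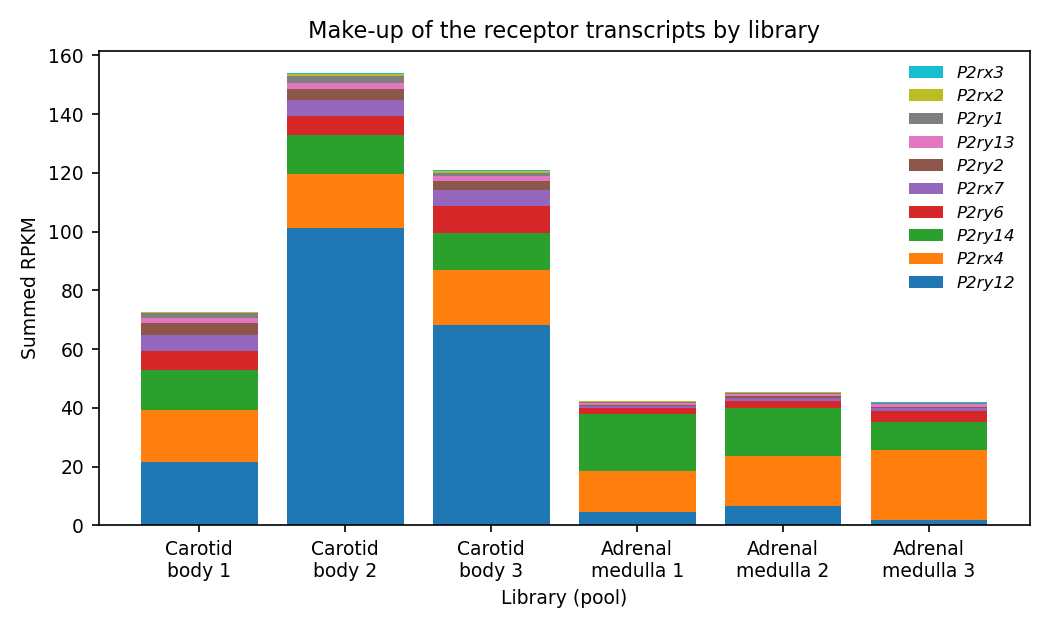
Summed RPKM (vertical axis, from 0) of the 10 receptor genes in each of the 6 libraries (horizontal axis), stacked by gene. P2ry12, at the base, takes 65.7% of the 154 RPKM of carotid body pool 2, and the adrenal medulla pools stand at 42.0 to 45.5 RPKM.

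In order of mean level, the carotid body held P2ry12 at 63.7 RPKM, then P2rx4 at 18.3, P2ry14 at 13.1, P2ry6 at 7.43, P2rx7 at 5.43 and P2ry2 at 3.61 RPKM. The libraries of each of these genes lay above those of the next. P2ry13 and P2ry1 followed at 1.77 and 1.67 RPKM with overlapping libraries, and P2rx2 and P2rx3, at 0.622 and 0.224 RPKM, overlapped too. In the adrenal medulla the order began with P2rx4 at 18.3 RPKM and P2ry14, whose libraries overlapped, and P2ry12 at 4.28 and P2ry6 at 2.73 RPKM overlapped as well. P2rx7 and P2ry13 were next, at 0.966 and 0.950 RPKM and overlapping, and P2ry1, P2ry2, P2rx3 and P2rx2 lay between 0.325 and 0.161 RPKM, each overlapping its neighbour in the order.

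**Figure D2:**
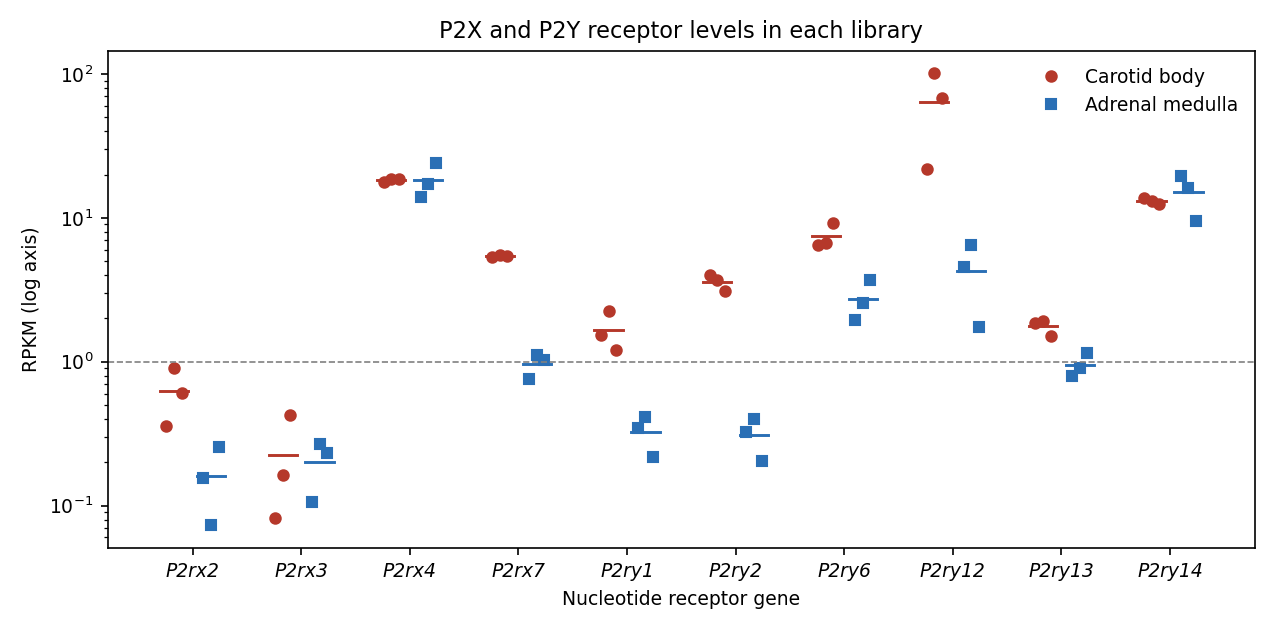
RPKM on a log axis of each receptor gene in the 3 carotid body libraries (red circles) and the 3 adrenal medulla libraries (blue squares), with lines at the means and a dashed line at 1 RPKM, the level a gene had to reach in at least 3 libraries to be tested. P2rx4 and P2ry14 overlap between the tissues, while P2rx7, P2ry1, P2ry2, P2ry6 and P2ry12 lie higher in every carotid body library.

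Tissue differences were tested with limma on log2(RPKM + 1) over all 13357 genes with at least 1 RPKM in at least 3 libraries, at a Benjamini-Hochberg adjusted p under 0.05. Of the receptor genes, 8 were tested, of which the carotid body had 5 called higher and 0 called lower, with 3 left uncalled. Among all tested genes, 14.2% were higher and 7.73% lower, 21.9% in all. Of the 8, none was lower at an unadjusted p under 0.05 either. The median log2 difference of the 8 was 1.09, against 0.02 for all genes tested. P2ry1 and P2ry2 reached 1 RPKM in the carotid body libraries only, so they could enter the test only by being high there. Of the other 6, 3 were called. All 3 carotid body libraries lay above all 3 adrenal medulla libraries for 7 of the 10 genes, against 20.6% of the entries above 0 in a library and 22.3% of the tested genes.

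**Figure D3:**
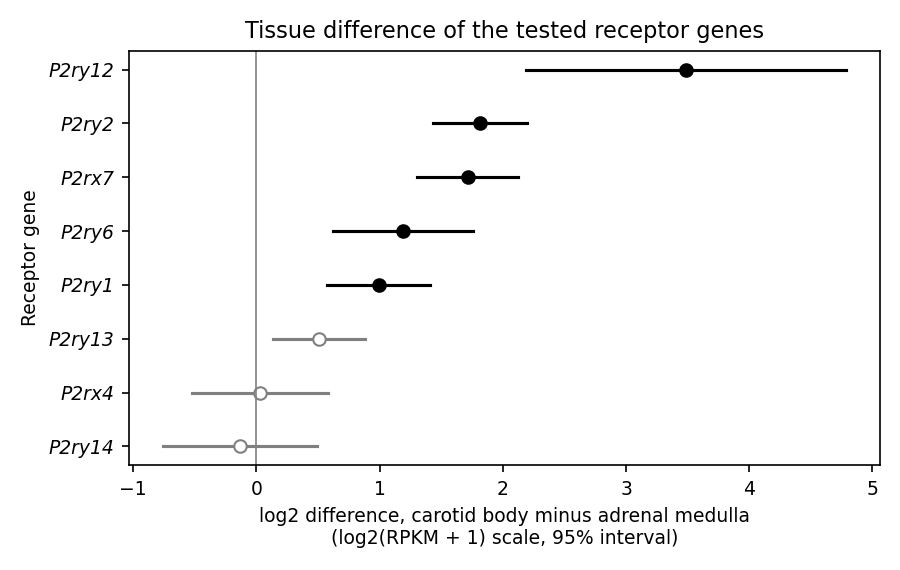
Log2 difference of carotid body minus adrenal medulla on the log2(RPKM + 1) scale (horizontal axis) with its 95% interval for the 8 tested receptor genes; filled black points passed the limma test. P2ry12 stands at 3.48 with the widest interval, and the intervals of P2rx4 and P2ry14 include 0.

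Of the ion channels, P2rx7 separated the tissues and P2rx4 did not. P2rx7 encodes a channel that opens at high ATP levels, is known for inflammasome activation in macrophages and is also found in glia. It stood at 5.31, 5.53 and 5.45 RPKM in the carotid body pools against 0.754, 1.12 and 1.02 RPKM in the adrenal medulla pools. The carotid body pools differed little from each other and none overlapped the adrenal medulla. The means were 5.43 ± 0.113 and 0.966 ± 0.190 RPKM (SD, n = 3 pools each), with a log2 difference of 1.71 ± 0.18 (SE; limma adjusted p = 0.000227). The deposited entry joins several splice forms of P2rx7, which were not told apart.

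P2rx4, a channel abundant in endothelium and macrophages, was at 17.7, 18.6 and 18.7 RPKM in the carotid body and at 13.9, 17.2 and 24.0 RPKM in the adrenal medulla. The adrenal medulla pools spread to both sides of the carotid body pools. The log2 difference was 0.03, with a 95% interval of -0.52 to 0.58 (limma adjusted p = 0.959). Its sign turned to -0.05 under median-ratio scaling and to -0.14 without adrenal medulla pool 1.

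P2rx7 and P2rx4 lie close together on chromosome 5, with a pseudogene between them in the RefSeq table of GRCm38.p6. The ratio of P2rx7 to P2rx4 within a library was 0.301, 0.298 and 0.292 in the carotid body pools and 0.0543, 0.0652 and 0.0427 in the adrenal medulla pools. The groups did not overlap, and a two-sided exact permutation test of the log2 ratio gave p = 0.1, the smallest that 3 against 3 pools allow. The same p was found for each of the 5 ratios between members computed, and adjusted over the 5 it was again 0.1.

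P2rx2 and P2rx3, the subunits of the receptors on the afferent endings, were the least abundant members in the carotid body. P2rx2 had 10, 23 and 18 reads in the carotid body pools and 4, 2 and 8 reads in the adrenal medulla pools, or 0.359, 0.903 and 0.602 RPKM against 0.155, 0.0730 and 0.253 RPKM. Every carotid body pool was above every adrenal medulla pool, at a depth of a few reads. Neither gene reached 1 RPKM in any library, so both stayed out of the main test. With no filter on low values, P2rx2 had a log2 difference of 0.47 and was not called by limma, with an adjusted p just above the threshold. In that fit, 11.3% of genes were called higher and 5.73% lower. The exact two-sided permutation test gave p = 0.1 (n = 3 pools each), the smallest possible.

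P2rx3 had 5, 9 and 28 reads in the carotid body pools and 6, 16 and 16 in the adrenal medulla pools, or 0.0822, 0.162 and 0.429 RPKM against 0.107, 0.268 and 0.232 RPKM. The tissues overlapped, with the highest and the lowest value both in the carotid body. Without the filter, the log2 difference was 0.02 (limma adjusted p = 0.939). Markers of sensory neuron cell bodies were at or near 0 in the same libraries. The sodium channel gene Scn10a, the capsaicin receptor gene Trpv1 and the transcription factor gene Pou4f1 had 0 reads in all 3 carotid body libraries, and Scn11a had 1 read there in all. Of 18 analysed peripheral neuron markers, 14 were tested. Of these, 4 were called higher and 1 lower in the carotid body, and the list's summed level was 765 to 969 RPKM in the carotid body against 593 to 894 RPKM in the adrenal medulla.

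The P2Y receptors coupled to Gq, P2ry1, P2ry2 and P2ry6, were all higher in the carotid body. P2ry2, the receptor of ATP and UTP, was at 4.00, 3.72 and 3.10 RPKM in the carotid body pools and at 0.323, 0.397 and 0.203 RPKM in the adrenal medulla pools. The lowest carotid body pool was far above the highest adrenal medulla pool. The ratio of the means, 3.61 ± 0.457 to 0.307 ± 0.098 RPKM (SD, n = 3), was 11.7, and the log2 difference was 1.81 ± 0.17 (SE; limma adjusted p = 0.000122). The added 1 RPKM shrinks the difference of such low genes, and with 0.1 RPKM added it was 3.21.

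P2ry1, an ADP receptor that starts the calcium response of platelets, was at 1.54, 2.26 and 1.20 RPKM in the carotid body against 0.344, 0.413 and 0.218 RPKM in the adrenal medulla. The tissues did not overlap, although carotid body pool 2 was well above pool 3. The log2 difference was 0.99 ± 0.18 (SE; limma adjusted p = 0.00463), or 2.04 with 0.1 RPKM added. An opposite-strand gene of GENCODE M21, Gm37035, covers 23.1% of the exon bases of P2ry1, and whether the reads kept their strand is not given in the sources used here. P2ry6, the UDP receptor that promotes uptake by microglia and cytokine release by macrophages, was at 6.47, 6.65 and 9.18 RPKM in the carotid body and at 1.94, 2.56 and 3.68 RPKM in the adrenal medulla. Its log2 difference was 1.19 ± 0.25 (SE; limma adjusted p = 0.00894). The call of P2ry6 ended without carotid body pool 3 (adjusted p = 0.0510), the highest of its pools.

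P2ry6 and P2ry2 are direct neighbours on chromosome 7 in the RefSeq table. P2ry2 reached 0.618, 0.560 and 0.338 of the level of P2ry6 in the carotid body pools and 0.166, 0.155 and 0.0551 in the adrenal medulla pools. These ratios did not overlap between the tissues (exact two-sided permutation p = 0.1, n = 3 each). With 3 pools a tissue the exact test cannot give a smaller p.

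The receptors coupled to Gi, P2ry12, P2ry13 and P2ry14, form a cluster on chromosome 3 inside the larger gene Med12l, which is read from the opposite strand. Their 3 promoters and that of P2ry2 are shown because the genes of this locus differed in their calls and because P2ry2 had the smallest adjusted p of the receptors. Each sequence is the 250 bases before the most upstream start in the RefSeq promoter table of GRCm38.p6, 5′ to 3′ on the gene's own strand, which is the minus strand for all 4. Capitals mark ACGTG, a form of the core that hypoxia-inducible factors bind, and GAGGAA, a core bound by the myeloid factor PU.1, on either strand. The GCGTG form was not searched for and is unmarked where it occurs, as in P2ry13, P2ry14 and P2ry2.
P2ry12 (chr3:59262986-59263235): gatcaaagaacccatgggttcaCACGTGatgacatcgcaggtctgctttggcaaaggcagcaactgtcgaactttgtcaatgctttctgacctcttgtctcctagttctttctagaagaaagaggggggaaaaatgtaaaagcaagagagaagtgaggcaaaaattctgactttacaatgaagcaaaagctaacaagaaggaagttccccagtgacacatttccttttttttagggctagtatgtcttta
P2ry13 (chr3:59210883-59211132): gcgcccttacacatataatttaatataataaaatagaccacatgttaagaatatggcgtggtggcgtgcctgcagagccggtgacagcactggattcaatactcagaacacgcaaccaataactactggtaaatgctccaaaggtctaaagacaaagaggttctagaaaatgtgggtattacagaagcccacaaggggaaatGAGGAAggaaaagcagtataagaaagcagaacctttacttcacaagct
P2ry14 (chr3:59153493-59153742): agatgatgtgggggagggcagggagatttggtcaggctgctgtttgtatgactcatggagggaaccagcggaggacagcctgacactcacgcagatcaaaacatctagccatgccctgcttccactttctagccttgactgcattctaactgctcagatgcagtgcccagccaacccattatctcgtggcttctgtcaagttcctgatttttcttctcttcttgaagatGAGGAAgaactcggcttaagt
P2ry2 (chr7:101012054-101012303): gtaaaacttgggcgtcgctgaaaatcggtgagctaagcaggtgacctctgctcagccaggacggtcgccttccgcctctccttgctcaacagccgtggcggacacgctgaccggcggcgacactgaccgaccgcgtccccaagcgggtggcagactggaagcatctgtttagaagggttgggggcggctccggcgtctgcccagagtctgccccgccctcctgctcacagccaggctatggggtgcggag
In P2ry12 both strands of ACGTG overlap at bases 23 to 28, within 111 bases that are also a coding exon of Med12l. P2ry13 and P2ry14 each hold 1 GAGGAA, and P2ry2 holds neither ACGTG nor GAGGAA. Of 7 members listed in the promoter table, 1 had ACGTG and 2 had GAGGAA in this window, against 16.6% and 23.3% of 32817 promoter windows of the same length. P2rx2, P2rx3 and P2ry6 were not looked up elsewhere. A match describes letters and shows no binding.

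P2ry12 had the largest tissue difference of the tested receptors. It stood at 21.7, 101.1 and 68.4 RPKM in the carotid body pools and at 4.58, 6.502 and 1.74 RPKM in the adrenal medulla pools. The lowest carotid body pool was above the highest adrenal medulla pool, but the carotid body pools spread over a wide range, with pool 2 far above pool 1. Fat cell markers had the same order of carotid body pools, with a summed level of 416, 3682 and 898 RPKM in pools 1, 2 and 3, against 742, 230 and 2295 RPKM in the adrenal medulla pools, where P2ry12 was lowest in pool 3 and the fat markers highest. None of the 7 tested fat markers was called, and their part in the P2ry12 values was not tested. The means were 63.7 ± 39.9 and 4.28 ± 2.39 RPKM (SD, n = 3), and the log2 difference was 3.48 ± 0.57 (SE; limma adjusted p = 0.00246). It was 4.11 with carotid body pool 1 left out, and 2.62 with carotid body pool 2 left out together with adrenal medulla pool 3, and P2ry12 was called in both cases. The depth behind these values was 736, 3136 and 2489 reads in the carotid body against 144, 217 and 67 reads in the adrenal medulla, so counting error is small beside the spread between pools.

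P2ry13, a second ADP receptor, was at 1.87, 1.93 and 1.52 RPKM in the carotid body and at 0.791, 0.910 and 1.15 RPKM in the adrenal medulla. The tissues did not overlap, yet the log2 difference of 0.51 ± 0.16 (SE) did not pass (limma adjusted p = 0.0579). Without adrenal medulla pool 3 it passed, at 0.58 (adjusted p = 0.0427). P2ry14, the receptor of UDP-glucose, was at 13.7, 13.1 and 12.5 RPKM in the carotid body against 19.5, 16.1 and 9.54 RPKM in the adrenal medulla. The carotid body pools were tight and lay inside the range of the adrenal medulla pools. The log2 difference was -0.13, with a 95% interval of -0.76 to 0.49 (limma adjusted p = 0.805), and it was 0.07 without adrenal medulla pool 1.

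Within a library, the ratio of P2ry12 to P2ry14 was 1.59, 7.74 and 5.46 in the carotid body pools and 0.235, 0.404 and 0.183 in the adrenal medulla pools. P2ry12 was thus the higher of both in every carotid body pool and the lower in every adrenal medulla pool. The ratio of P2ry12 to P2ry13 was 11.6, 52.4 and 45.1 against 5.80, 7.15 and 1.52, again without overlap (exact two-sided permutation p = 0.1 for each ratio, n = 3 pools each). Med12l itself was at 1.33, 1.54 and 1.32 RPKM in the carotid body and at 0.797, 0.689 and 0.314 RPKM in the adrenal medulla, a log2 difference of 0.60 (limma adjusted p = 0.0367). It too could enter the test only by being high in the carotid body. The call of Med12l ended with 0.1 RPKM added (0.0522), under quantile scaling (0.116), without the variance trend (0.0743) and without adrenal medulla pool 2 or 3 (0.0837 and 0.0766). Gpr171, the receptor gene next to P2ry14, averaged 1.17 RPKM in the carotid body and 0.681 RPKM in the adrenal medulla and was not tested.

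**Figure D4:**
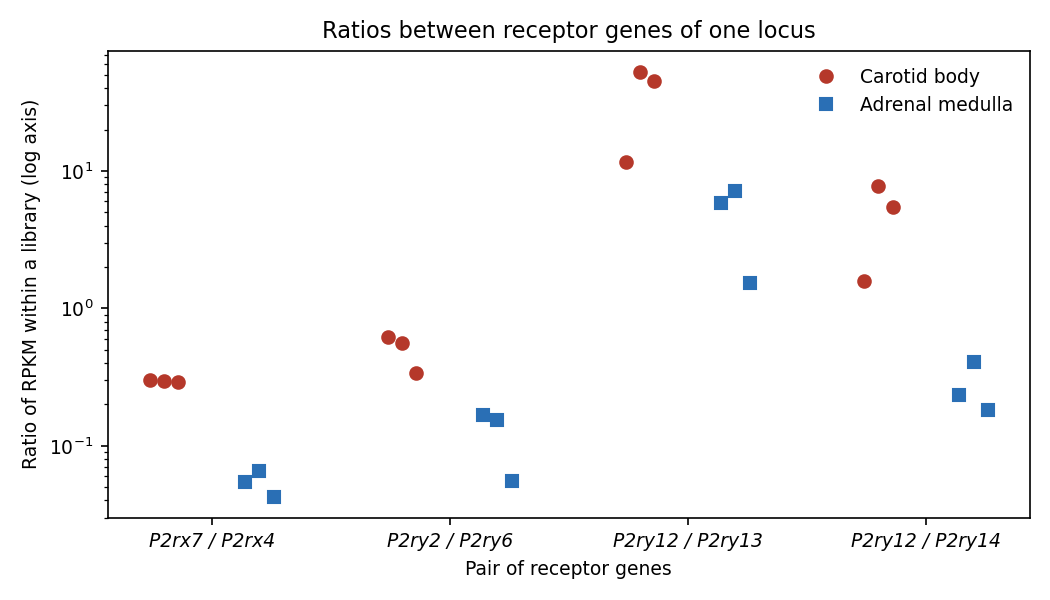
Ratio of the RPKM of 2 receptor genes within a library, on a log axis, for the 3 carotid body (red circles) and 3 adrenal medulla libraries (blue squares). The ratio of P2rx7 to P2rx4 holds at 0.292 to 0.301 in the carotid body, whereas the ratio of P2ry12 to P2ry14 runs from 1.59 to 7.74 there.

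Some markers of other cells that carry these receptors also differed between the tissues. Of 19 analysed macrophage and microglia markers, 6 were called higher in the carotid body, among them the growth factor receptor gene Csf1r and the scavenger receptor gene Cd163. None of the other 13 was called. None of the 19 was at 0 in either tissue. Their summed level was 934 to 1165 RPKM in the carotid body and 454 to 997 RPKM in the adrenal medulla, and it overlapped. This sum rests mostly on Lyz2, C1qa, C1qb and C1qc, none of which was called. They averaged 263, 202, 193 and 103 RPKM in the carotid body and 191, 119, 145 and 62.9 RPKM in the adrenal medulla. As a percentage of that sum, P2ry12 was 1.86%, 10.8% and 6.12% in the carotid body pools and 1.01%, 0.982% and 0.175% in the adrenal medulla pools, without overlap. Relative to Csf1r alone, P2ry12 overlapped, at 0.623, 4.12 and 2.31 in the carotid body against 0.533, 0.669 and 0.115 in the adrenal medulla. Relative to the microglial chemokine receptor gene Cx3cr1 it did not overlap, at 3.75 to 25.4 in the carotid body against 0.326 to 1.03 in the adrenal medulla. P2rx7 did not overlap under any of these measures, at 0.152 to 0.225 of Csf1r in the carotid body against 0.0676 to 0.115 in the adrenal medulla, at 0.917 to 1.39 of Cx3cr1 against 0.145 to 0.191, and at 0.455% to 0.592% of the summed list against 0.103% to 0.169%. P2rx4 was lower relative to Csf1r, at 0.507 to 0.756 in the carotid body against 1.58 to 1.77 in the adrenal medulla, and as a share of the summed list, at 1.51% to 1.99% against 2.40% to 3.06%. Relative to Cx3cr1 it overlapped, at 3.05 to 4.67 in the carotid body against 2.66 to 4.48 in the adrenal medulla.

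P2ry6 was at 0.186 to 0.310 of Csf1r in the carotid body and at 0.226 to 0.263 in the adrenal medulla, where the tissues overlapped. As a share of the summed macrophage list it did not overlap, at 0.555% to 0.822% in the carotid body and 0.369% to 0.428% in the adrenal medulla, nor did it relative to Cx3cr1, at 1.12 to 2.16 against 0.372 to 0.688. P2ry13 overlapped relative to Csf1r and to the summed list, but not relative to Cx3cr1, at 0.324 to 0.485 against 0.144 to 0.215. Platelet markers summed to 104 to 175 RPKM in the carotid body against 25.3 to 33.7 RPKM in the adrenal medulla. Of these, 2 of 4 tested markers were higher in the carotid body, Ppbp and Pf4, which macrophages also express. Mast cell markers summed to 178 to 239 RPKM in the carotid body against 3.02 to 10.4 RPKM in the adrenal medulla. Glia markers summed to 405 to 592 against 60.3 to 82.1 RPKM, and smooth muscle and pericyte markers to 2572 to 3110 against 118 to 121 RPKM. The part of these cells in the receptor differences was not tested.

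Genes whose pattern over the 6 libraries was most like that of a called member were listed by the Pearson correlation of log2(RPKM + 1), as a description without a test, since the 6 points fall into 2 tissues. For P2rx7 these were the B cell survival factor gene Tnfsf13b (r = 0.9996), the calponin gene Cnn2 and Entpd2, an ectonucleotidase gene. For P2ry12 they were Nptx1, a neuronal pentraxin gene (r = 0.999), at 16.6, 52.0 and 39.4 RPKM in the carotid body and 4.52, 5.97 and 1.76 RPKM in the adrenal medulla, then Reck and Smpd3. Nptx1 was chosen by its likeness over these same values, so the order of the pools that it shares with P2ry12 largely follows from the choice. For P2ry2 the list was led by the potassium channel gene Kcna1 (r = 0.9997), followed by Mprip and Zcchc24. P2ry6 was followed by Rab11b, Tubb2b and Ppib, and P2ry1 by Tmcc2, Ccnyl1 and Pias3.

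Enzymes that break down extracellular nucleotides differed in both directions. Of 13 genes, 10 were tested, with 6 called higher in the carotid body, 3 called lower and 1 not called. Among the higher ones, Enpp1 and Enpp3 reached 1 RPKM in the carotid body only and could enter the test only by being high there. Of the 3 left out, Entpd3 was lower in every carotid body library, Acpp overlapped and Entpd8 had 0 reads. With no filter on low values limma called Entpd3 lower in the carotid body (log2 -0.755, adjusted p = 0.0108). In that fit, 5.73% of genes were called in that direction. Entpd2, a membrane enzyme that turns ATP mainly into ADP and is known from glia-like cells, stood at 70.7, 63.7 and 77.5 RPKM in the carotid body against 3.27, 5.46 and 4.87 RPKM in the adrenal medulla (log2 difference 3.71 ± 0.23 SE, limma adjusted p = 2.09e-05). Glia markers were higher in the same libraries, 11 of 11 tested, and their part in this value was not tested. The alkaline phosphatase gene Alpl (log2 3.23), Enpp2 (2.60) and Enpp3 (2.14) came next. Enpp2 encodes autotaxin, which mainly makes lysophosphatidic acid. The 3 lower genes, named here after their values were seen, were Entpd5 (-1.66) and Entpd4 (-1.06), whose products act chiefly in the endoplasmic reticulum and Golgi, and Nt5e (-1.05), the CD73 enzyme that makes adenosine from AMP. Leaving out any carotid body pool, or adrenal medulla pool 1 or 2, ended the call of Nt5e, at limma adjusted p of 0.0573 to 0.102. The call of Entpd5 ended without carotid body pool 1 (adjusted p = 0.0537).

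Of 10 genes of nucleotide release, 5 were tested, with 0 called higher in the carotid body and 2 called lower. The pannexin gene Panx1, a channel that can pass ATP, was at 4.54, 3.68 and 3.28 RPKM in the carotid body and at 9.83, 11.9 and 8.84 RPKM in the adrenal medulla (log2 -1.21, limma adjusted p = 0.00419). The connexin gene Gja1 differed by -2.42. Slc17a9, the vesicular nucleotide transporter gene, stayed out of the test, with 15 reads in the carotid body pools together and 17 in those of the adrenal medulla. Of 5 genes with a P2 receptor symbol outside the chosen set, 2 were tested. P2rx1, a channel of platelets and smooth muscle, was higher in the carotid body, at 1.38, 1.297 and 2.00 RPKM against 0.00, 0.258 and 0.374 RPKM (log2 1.08, limma adjusted p = 0.00290), with 0 reads in adrenal medulla pool 1. Like P2ry1 and P2ry2, it could enter the test only by being high in the carotid body. P2rx6 was not called.

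**Figure D5:**
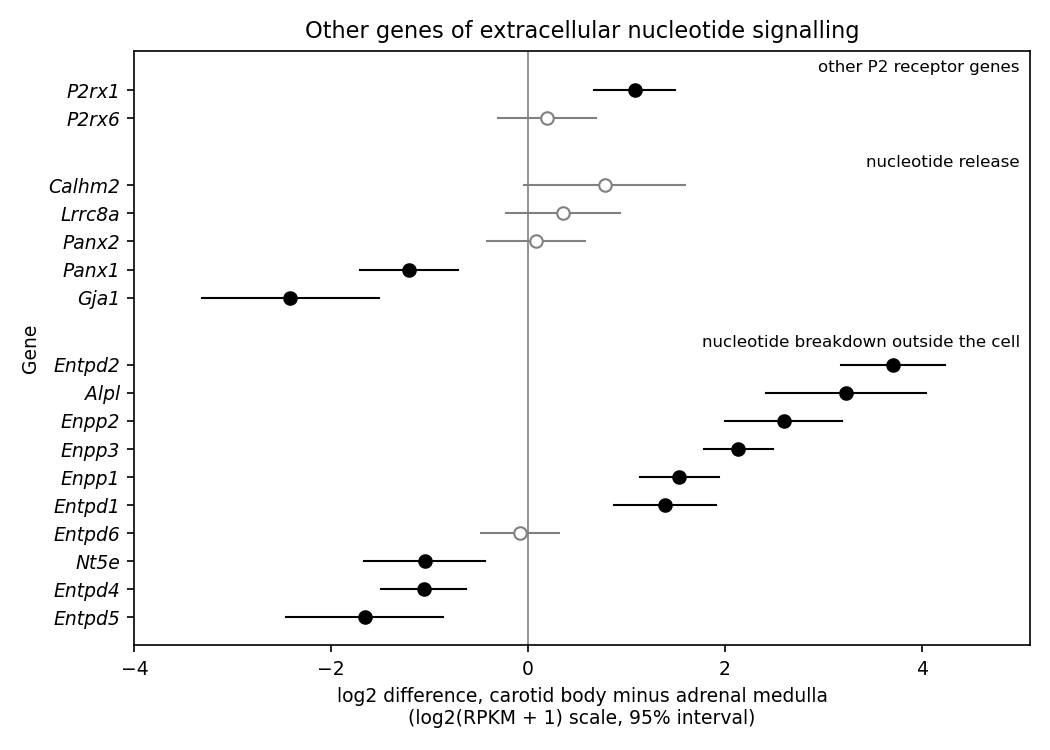
Log2 difference of carotid body minus adrenal medulla with its 95% interval for the tested genes of 3 lists, other P2 receptors, nucleotide release and nucleotide breakdown; filled black points passed the limma test. Entpd2 lies at 3.71 and Gja1 at -2.42, and 7 of the 17 genes are called higher and 5 lower in the carotid body. Of the higher genes, P2rx1, Enpp1 and Enpp3 could enter the test only by being high there.

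Further down the pathway, the adenosine receptor genes split. Adora2a averaged 11.0 ± 2.68 RPKM in the carotid body and 0.580 ± 0.185 RPKM in the adrenal medulla (SD, n = 3; log2 2.91), and Adora1 3.31 ± 2.07 and 27.8 ± 4.64 RPKM (log2 -2.83). Adora2a reached 1 RPKM in the carotid body only, so it could enter the test only by being high there. The other 7 of 9 tested genes of adenosine reception and uptake were not called, though Adora2b was called lower by limma with the pool number as a block (adjusted p = 0.0433), with median-ratio (0.0241) or quantile scaling (0.00736) and without adrenal medulla pool 3 (0.0408), against 0.0528 in the main comparison. Adk, named with Slc29a1 after their values were seen, was called lower under median-ratio scaling (0.0358) and without adrenal medulla pool 3 (0.0413), against 0.0928. Slc29a1 was called higher without adrenal medulla pool 3 (0.0333), against 0.252. Of 12 tested genes for G proteins and phospholipases that P2Y receptors couple to, Gna15 (log2 0.93) and Gnai2 (0.88) were higher in the carotid body, Gna14 (-1.80) was lower and 9 were not called. These 3 calls were not stable: that of Gnai2 ended under median-ratio scaling (limma adjusted p = 0.0734) and without any 1 library except adrenal medulla pool 3 (0.0835 to 0.135). That of Gna15 ended under quantile scaling (0.0764) and without adrenal medulla pool 1 or 2 (0.0665 and 0.0616). That of Gna14 ended without carotid body pool 1 or 3 (0.0656 and 0.0548) or adrenal medulla pool 2 (0.0509). Gna15, like Adora2a, could enter the test only by being high in the carotid body. Plcb1, named after its values were seen, was not called in the main comparison (0.0527) but was called lower with the block (0.0128), with median-ratio (0.0278) or quantile scaling (0.0201) and without adrenal medulla pool 3 (0.00723).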

How the data were processed

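Per the labels' protocols, RNA purified on RNeasy Micro columns went through 1 amplification kit (Amino Allyl MessageAmp II) before fragmentation and Illumina library construction. Reads were aligned with Bowtie 0.9.8 to mm9, per the submitters' processing notes; the counting tool is not given in the sources used here. The authors deposited RPKM values for 23511 entries with an mRNA length. RPKM times length, divided by the smallest such product of a library, was whole within 0.01 for 106276 of 106276 values above 0, which gave the reads behind each value. The 3217 entries without a length hold raw reads, 5.85% to 8.27% of a library, and were left out. A value resting on 100 reads has a counting error of 10%, which does not include the error of amplification.

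Tissues were compared with limma (version 3.58.1, run under R 4.3.3), two-sided and with a variance trend, on log2(RPKM + 1) over the 13357 genes of at least 1 RPKM in at least 3 libraries. The moderated test had 8.47 degrees of freedom. Log2 differences are carotid body minus adrenal medulla. Other steps ran in Python 3.11.15, using numpy 2.4.6, pandas 2.3.3 and, for plots, matplotlib 3.10.9. P-values measure the spread between these pools. Permutation tests were exact over the 6 libraries. Deviations of same-numbered pools from their tissue means correlated across genes at 0.26, 0.13 and 0.47 for numbers 1, 2 and 3. Those of differently numbered pools ran from -0.62 to 0.29, and carotid body pool 2 correlated more with adrenal medulla pool 1 (0.29) than with pool 2. A fit with the number as a block was an alternative. The labels do not say what the number stands for.

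All 10 members are named whatever their values. Of each pathway list, up to 4 called genes with the largest absolute log2 difference are named, and of members' genomic neighbours those that overlap or adjoin them. Genes named beyond that, marker genes included, spell out a count and were chosen after their values were seen. For likeness, the 3 genes with the highest correlation were taken among tested genes averaging at least 5 RPKM. Members and lists were chosen with earlier results of these data known. Sequences come from RefSeq, GRCm38.p6, and gene neighbours from the same assembly, used for order only because the reads were aligned to an earlier build.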

Additional observations from a re-analysis of the deposited data

How the results depend on the processing

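The count of 5 receptor genes higher in the carotid body was also 5 with pseudocounts of 0.1 and 0.5 RPKM, with no filter, under median-ratio and quantile scaling, without the variance trend and with the replicate block, and 0 were lower in each of these. Without 1 library it ranged from 2 to 6, because P2ry1 and P2ry2 fall below the filter without any 1 carotid body pool and P2ry6 lost its call without pool 3, and it was 3 when carotid body pool 2 was left out together with adrenal medulla pool 3, a pair called both libraries here. Over the same 13357 genes as in the main comparison, a setting chosen after seeing the data, it was 5 or 6 without 1 library and 5 without both. P2rx7, P2ry1, P2ry2 and P2ry12 were called in every setting that tested them. Over all genes, 1896 were higher and 1033 lower. Without 1 library and with the filter applied again, 926 to 1976 were higher and 464 to 1178 lower; without both libraries 1603 were lower, or 2067 over the same genes, and calls leaned 45.5% and 48.3% to the carotid body, against 64.7% with all libraries; the cause was not tested. With the replicate block 2257 were higher and 1356 lower, and of the receptor and pathway genes it changed the calls of Adora2b and Plcb1 alone. Signs turned among genes that were not called. P2rx4 went to -0.048 under median-ratio scaling and ranged from -0.14 to 0.23 without 1 library, and P2ry14 ranged from -0.41 to 0.069. P2rx6 went to -0.041 under quantile scaling and -0.10 without both libraries over the same genes, and Panx2 to -0.14 under quantile scaling, with a range of -0.14 to 0.30 over the settings that leave out libraries. Over those settings Entpd6 ranged from -0.23 to 0.027, Ada from -0.12 to 0.038 with values of 0.014 and 0.026 between them, Gnaq from -0.36 to 0.23 with -0.19 and -0.095, Gnai3 from -0.71 to 0.22 with 0.0068, and Gnaz from -0.14 to 0.49. Under median-ratio scaling Gnaq was -0.0080. Leaving out any carotid body pool took Med12l below the filter, and over the same genes each such omission ended its call. A count test on the recovered reads was not run, since the deposited unit is RPKM. Depth limits P2rx2 and P2rx3, with 51 and 42 reads over the carotid body libraries and 14 and 38 over the adrenal medulla libraries.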

Other observations

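P2rx5, a P2X channel gene also known as a surface marker of brown fat cells, was high in 1 library. It had 5, 106 and 16 reads in carotid body pools 1, 2 and 3 and 4, 15 and 9 reads in adrenal medulla pools 1, 2 and 3, or 3.48 RPKM in carotid body pool 2 and at most 0.458 RPKM elsewhere. Brown fat genes were high in the same library. Ucp1, the uncoupling protein of brown fat, was at 221 RPKM in carotid body pool 2 and at 0.00 and 2.23 RPKM in pools 1 and 3, against 0.00, 0.128 and 2.48 RPKM in the adrenal medulla pools, and Cidea reached 276 RPKM in that library, with 2.59 to 9.71 RPKM in the other 5. The part of fat in the P2rx5 value was not tested. The same library had the highest P2rx2, P2rx7, P2ry1, P2ry12 and P2ry13 values, while P2rx3, P2rx4, P2ry2, P2ry6 and P2ry14 were highest in other libraries. Its lead over carotid body pools 1 and 3 was small for P2rx7 (5.53 against 5.31 and 5.45 RPKM). The same held for P2ry13 against pool 1 (1.93 against 1.87 RPKM). P2ry12 was called when carotid body pool 2 was left out, with a log2 difference of 3.03.

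P2ry4, a pyrimidine receptor, and P2ry10, a receptor of lymphoid cells, stayed below the filter. P2ry10 was listed by its symbol only, not as a receptor shown to bind nucleotides. Both genes were low. They averaged 0.843 ± 0.207 and 0.793 ± 0.236 RPKM in the carotid body and 0.309 ± 0.044 and 0.118 ± 0.084 RPKM in the adrenal medulla (SD, n = 3). With no filter on low values limma called both higher in the carotid body, at adjusted p = 0.0201 and 0.00819, where 11.3% of 19505 genes were called in that direction.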
